A study of Mus musculus with 18 samples.

Results

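The 10 genes described here encode keratins and desmosome proteins of epithelial cells. They are the keratins Krt8, Krt18, Krt19, Krt7 and Krt17, the desmosomal cadherins Dsc2 and Dsg2, and the plaque proteins Dsp, Jup and Pkp2. They were chosen by gene symbol, and each was measured by 1 probe set that carried no other symbol. They are 10 of the 19938 genes measured. The cells were F9, a mouse embryonal carcinoma line, grown in serum-containing medium on gelatine-coated plates. The vehicle group was ethanol for 48 h (2 arrays, replicates 1 and 2). All-trans retinoic acid (ATRA), which activates every retinoic acid receptor (RAR), was given at 1 µM. BMS753, specific for RARα per the labels, and BMS641, specific for RARβ, were also given at 1 µM, and BMS961, specific for RARγ, at 0.1 µM, so its dose matched none of the others. Each retinoid had 1 array at 2, 6, 24 and 48 h, which gives 18 arrays in all. All groups were this same line, for which the labels name no engineered allele, and the vehicle was given for 48 h only. Pou5f1, a defining gene of embryonal carcinoma cells, lay between 11.80 and 12.21 on all 18 arrays (log2 level). This was the narrowest range of 8 listed markers of these cells. Others varied more, such as Tdgf1 (10.21 to 12.41) and Sox2 (10.74 to 11.91).

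Keratins are the subunits of the intermediate filaments of epithelia and form filaments only as pairs of a type I chain (Krt17, Krt18, Krt19) with a type II chain (Krt7, Krt8). Krt8 and Krt18 are the first keratins of the mouse embryo and mark its trophectoderm and its extraembryonic endoderm, the lineage that F9 cells enter when given retinoic acid. Desmosomes anchor these filaments at cell contacts: the cadherins Dsc2 and Dsg2 bridge the membranes, Jup and Pkp2 bind their tails, and Dsp ties the plaque to the keratins.

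Levels are the authors' log2 values from RMA, the method that corrects, normalizes and summarizes the probes of an Affymetrix array. For each retinoid, early stands for 2 h plus 6 h and late for 24 h plus 48 h. Tests are from a limma fit to all 18 arrays, with Benjamini-Hochberg adjustment over 19938 genes and a call at an adjusted p under 0.05; changes are log2 ± SE. With n = 1 per retinoid and time, single times are given as values without a test. Nothing in the labels ties the pair of vehicle arrays to separate cultures, so their spread may be technical. The p-values measure the spread left by the fit. It holds the vehicle pair and how far each retinoid departs from the 2 h to 6 h and 24 h to 48 h steps shared by all retinoids. A time course particular to a retinoid thus counts as spread and widens the SE. The vehicle arrays differed more for all 10 genes than for the median gene (absolute log2 difference 0.23). For Krt17 the difference was 3.05, a size reached by 7 of all genes (0.0351%), Krt17 included. In 12146 probe sets that the annotation does not list, vehicle replicate 1 and the 4 ATRA arrays deviated together, with a mean correlation of 0.283 among these 5, 0.005 among the other 13 arrays and -0.185 between the sets. The labels name no batch. Results are therefore also given with this array set as a block, so that ATRA is read against vehicle replicate 1 only, and each BMS compound against vehicle replicate 2 only. In RNA of whole cultures, fewer cells of a type and less RNA per cell cannot be told apart.

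The filament pair Krt8 and Krt18 stood highest on the ATRA 48 h array. The genes are immediate neighbours on chromosome 15 in the RefSeq annotation, with 0 protein-coding genes between them, and their levels are followed here together with the letters upstream of their starts. The stretches below are the 250 bases before each start in RefSeq (GRCm38.p6), 5′ to 3′ along the gene: chr15:102004343-102004592 on the minus strand for Krt8 and chr15:102027966-102028215 on the plus strand for Krt18. Capitals mark AGGTCA, the core element of nuclear receptors such as RAR, and AGATAA, an element of GATA factors.
Krt8: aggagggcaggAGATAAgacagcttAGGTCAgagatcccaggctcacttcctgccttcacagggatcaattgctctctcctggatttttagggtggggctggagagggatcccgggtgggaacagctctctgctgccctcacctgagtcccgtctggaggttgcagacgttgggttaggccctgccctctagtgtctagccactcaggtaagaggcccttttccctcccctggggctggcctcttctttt
Krt18: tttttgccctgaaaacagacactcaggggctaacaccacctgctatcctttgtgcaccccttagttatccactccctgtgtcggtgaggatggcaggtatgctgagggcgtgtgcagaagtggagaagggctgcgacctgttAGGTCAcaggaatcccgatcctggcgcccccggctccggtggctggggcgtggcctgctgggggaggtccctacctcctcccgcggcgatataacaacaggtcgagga
Both strands were searched for these elements, for the AP-1 element TGANTCA and for the GC box GGGCGG, from 250 bases before each start to shortly after it. Krt8 held AGGTCA from base -225 and AGATAA from base -239, and Krt18 held AGGTCA from base -108, counting the base before the start as -1. Of 32544 windows of all genes, 16.2% held the nuclear receptor element, 7.79% the AP-1 element, 11.2% the GATA element and 35.9% the GC box. No match overlapped one of another motif in these windows. A match is a description of letters and was not tested as a binding site.

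Krt8, the type II partner, was at 7.68 and 8.33 on vehicle replicates 1 and 2. With ATRA it was 8.14, 7.39, 7.86 and 10.14 at 2, 6, 24 and 48 h, and with BMS961 8.27, 8.04, 8.25 and 9.22. These 48 h arrays were the highest of the 18, and every earlier ATRA or BMS961 array lay below vehicle replicate 2. With BMS753 Krt8 was 8.34, 8.05, 8.18 and 8.32, and with BMS641 8.16, 8.17, 8.21 and 8.02. The late ATRA change against vehicle was 0.99 ± 0.45 (1.99-fold, adjusted p = 0.245) and that of BMS961 0.73 ± 0.45 (adjusted p = 0.627). Neither passed. The 48 h array exceeded the 24 h array by 2.28 with ATRA and by 0.98 with BMS961. At 48 h alone Krt8 was 2.46 above vehicle replicate 1 and 1.81 above replicate 2 with ATRA, and 1.54 and 0.89 above them with BMS961.

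Krt18, the type I partner of Krt8, was at 6.34 and 5.89 on the vehicle arrays. ATRA arrays held 5.79, 5.84, 6.37 and 9.02 from 2 to 48 h, so the 48 h array exceeded the next highest of all arrays by 2.65. The other retinoids stayed within a narrow band. BMS961 arrays lay between 5.72 and 6.07, BMS753 arrays between 5.59 and 5.92 and BMS641 arrays between 5.59 and 5.91. Against vehicle the late ATRA change of Krt18 was 1.58 ± 0.48 (2.99-fold, adjusted p = 0.0853) and did not pass. Against late BMS641 it rose by 2.07 ± 0.48 (4.19-fold, adjusted p = 0.0167), but with the array set as a block this was 1.62 (adjusted p = 0.683). The rise rested on the 48 h array: without it the difference from BMS641 was 0.80 (adjusted p = 0.054), and without the BMS641 48 h array 1.51 (adjusted p = 0.217). At 48 h Krt8 was thus 1.21 above BMS641 with BMS961 and 2.12 with ATRA, while Krt18 was 0.48 and 3.44 above it. Krt8 and Krt18 correlated over the 18 arrays at r = 0.75 (Spearman 0.18), and at -0.39 without the 2 arrays farthest from the Krt8 median, so the relation rested on those arrays. Both genes have processed pseudogenes in the mouse genome, and whether their RNA reached these probe sets was not tested.

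**Figure D1:**
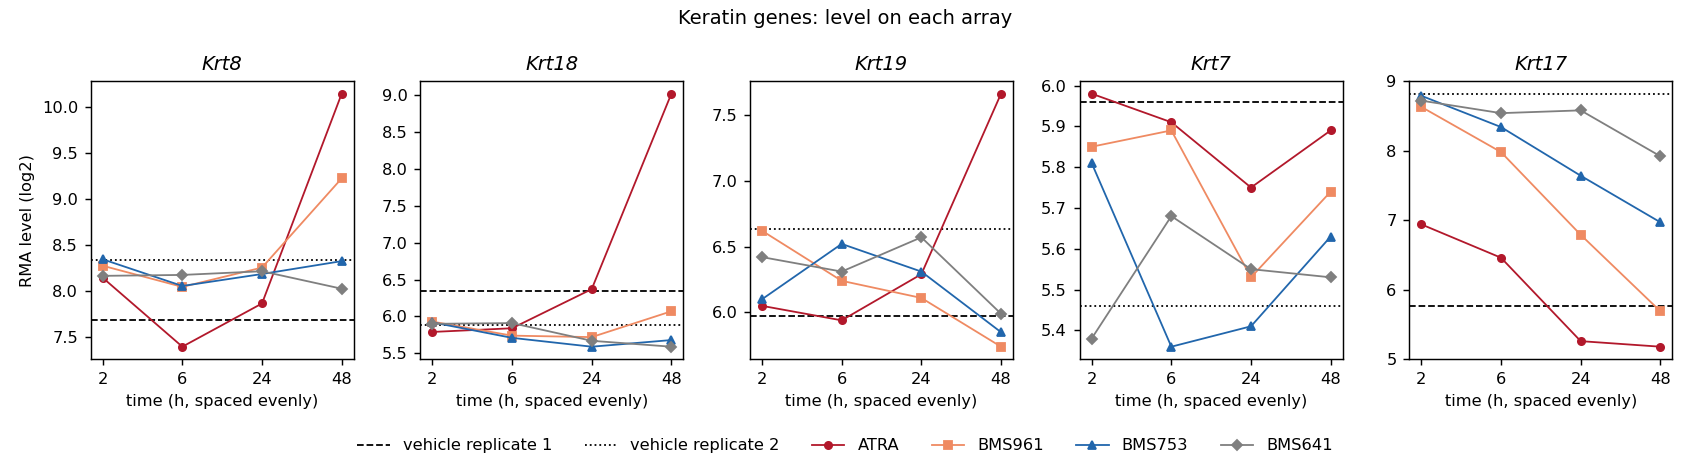
RMA level (log2, vertical axis of its own range in each panel) of the 5 keratin genes on each array by time (h, evenly spaced), with 1 array per point and the vehicle arrays as dashed (replicate 1) and dotted (replicate 2) lines. Krt8, Krt18 and Krt19 reached 10.14, 9.02 and 7.66 on the ATRA 48 h array, and Krt17 ran from 8.63 to 5.69 over the BMS961 arrays.

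Krt19, a type I keratin of simple and ductal epithelia, was at 5.97 and 6.63 on the vehicle arrays. ATRA arrays held 6.05, 5.94, 6.29 and 7.66, and the 48 h array stood 1.02 above the next highest. The lowest Krt19 level was at 48 h with BMS961 (5.74), followed by BMS753 at 48 h (5.85). Krt19 thus differed from Krt8, which was high at 48 h with BMS961 too. Its late change against vehicle was 0.67 ± 0.39 with ATRA (adjusted p = 0.395) and -0.38 ± 0.39 with BMS961 (adjusted p = 0.842), and neither passed. Krt7, a type II keratin of simple epithelia and of trophoblast, lay between 5.36 and 5.98 on all arrays, a range of 0.62 that hardly exceeded the 0.50 between its vehicle arrays. Its late changes against vehicle ran from -0.19 with BMS753 to 0.11 with ATRA, with a 95% interval of -0.30 to 0.51 for ATRA.

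Krt17, a type I keratin of basal and stressed epithelia, ran the opposite way over time. The vehicle arrays were far apart at 5.77 and 8.82. ATRA arrays held 6.94, 6.46, 5.26 and 5.18 at 2, 6, 24 and 48 h. BMS961 arrays held 8.63, 7.98, 6.79 and 5.69. BMS753 arrays held 8.79, 8.34, 7.64 and 6.97, and BMS641 arrays 8.72, 8.54, 8.58 and 7.92. Within ATRA, BMS961 and BMS753 each later array was lower than the one before, and the 6 early BMS arrays lay between 7.98 and 8.79, below vehicle replicate 2. The change from early to late was -1.48 ± 0.66 with ATRA (adjusted p = 0.224), -2.07 ± 0.66 with BMS961 (4.19-fold lower, adjusted p = 0.187), -1.26 ± 0.66 with BMS753 (adjusted p = 0.772) and -0.38 ± 0.66 with BMS641. None passed, and the vehicle pair, which does not enter these differences, takes part in their SE. With the array set as a block, which takes that pair out of the spread, the same values passed for ATRA (adjusted p = 0.00102), BMS961 (adjusted p = 0.000504) and BMS753 (adjusted p = 0.0198). Leaving out either vehicle array removes the pair in the same way and gives the same p.

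Against vehicle Krt17 was lower with late ATRA whichever vehicle array was used. With late BMS961, BMS753 and BMS641 its direction turned with the vehicle array. The late BMS961 mean of 6.24 lay above vehicle replicate 1 and below vehicle replicate 2. The late ATRA change was -2.07 ± 0.66 against both arrays (adjusted p = 0.0987) and -0.55 (adjusted p = 0.397) against vehicle replicate 1 alone with the block. For late BMS961 it was -1.05 ± 0.66 (adjusted p = 0.642) and with the block, against vehicle replicate 2, -2.58 (adjusted p = 0.000279). Late BMS753 was at 0.01 against both arrays, at -1.51 without vehicle replicate 1 and at 1.54 without vehicle replicate 2, and passed in each of the latter fits. Late BMS641 was at 0.96 against both arrays, at -0.57 with the block and at 2.48 without vehicle replicate 2. Late ATRA differed from late BMS641 by -3.03 ± 0.66 (8.18-fold lower, adjusted p = 0.013), and with the block this difference was 0.02. The call was also lost without the ATRA 24 h, ATRA 48 h, BMS641 24 h or BMS641 48 h array, with adjusted p from 0.0512 to 0.122.

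Dsc2, a desmosomal cadherin, had the widest range of levels over the 18 arrays among the 10 genes (4.60). It was at 5.28 and 4.38 on the vehicle arrays. With ATRA it was 4.74, 4.99, 7.10 and 8.70, and with BMS961 4.10, 4.70, 6.33 and 7.35. All 4 of these late arrays lay above both vehicle arrays and all 4 early arrays below vehicle replicate 1. With BMS753 Dsc2 was 4.39, 4.53, 4.85 and 5.42, and with BMS641 4.61, 4.67, 4.32 and 4.62. Against vehicle, Dsc2 rose late by 3.07 ± 0.31 with ATRA (8.38-fold, adjusted p = 0.00065) and by 2.01 ± 0.31 with BMS961 (4.03-fold, adjusted p = 0.00939). BMS753 gave 0.30 ± 0.31 (95% interval -0.37 to 0.97) and BMS641 -0.36 ± 0.31. The ATRA and BMS961 rises passed with the block too, at 2.62 and 2.46. From early to late Dsc2 rose by 3.03 ± 0.31 with ATRA (adjusted p = 0.00174) and by 2.44 ± 0.31 with BMS961 (adjusted p = 0.0053). The BMS961 rise against vehicle did not pass without its 24 h array (2.11, adjusted p = 0.109) or its 48 h array (1.91, adjusted p = 0.163), where a single array stands for late.

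Dsg2, the desmoglein of simple epithelia and heart, is encoded near Dsc2, with 6 protein-coding genes between them in the RefSeq annotation. Its levels and those of Dsc2 correlated at r = 0.40 over the 18 arrays (Spearman 0.34) and at 0.82 over the 13 outside the ATRA set. Without the 2 arrays farthest from the Dsc2 median r was 0.05. Both genes had their highest retinoid levels at 48 h of ATRA and BMS961, over a much narrower range for Dsg2. Its vehicle arrays were at 9.61 and 8.86, and the other 16 arrays lay between 8.45 and 9.23. ATRA arrays held 8.81, 8.45, 8.61 and 9.22, and BMS961 arrays 8.83, 8.64, 8.97 and 9.23. No retinoid array reached vehicle replicate 1. The late changes against vehicle ran from -0.41 ± 0.22 with BMS641 to -0.14 ± 0.22 with BMS961, and the late differences from BMS641 from 0.09 to 0.27, with none called. With the block the late BMS changes lay between -0.04 and 0.24, and the early ATRA arrays were lower than vehicle replicate 1 by a called -0.98 (adjusted p = 0.0317).

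**Figure D2:**
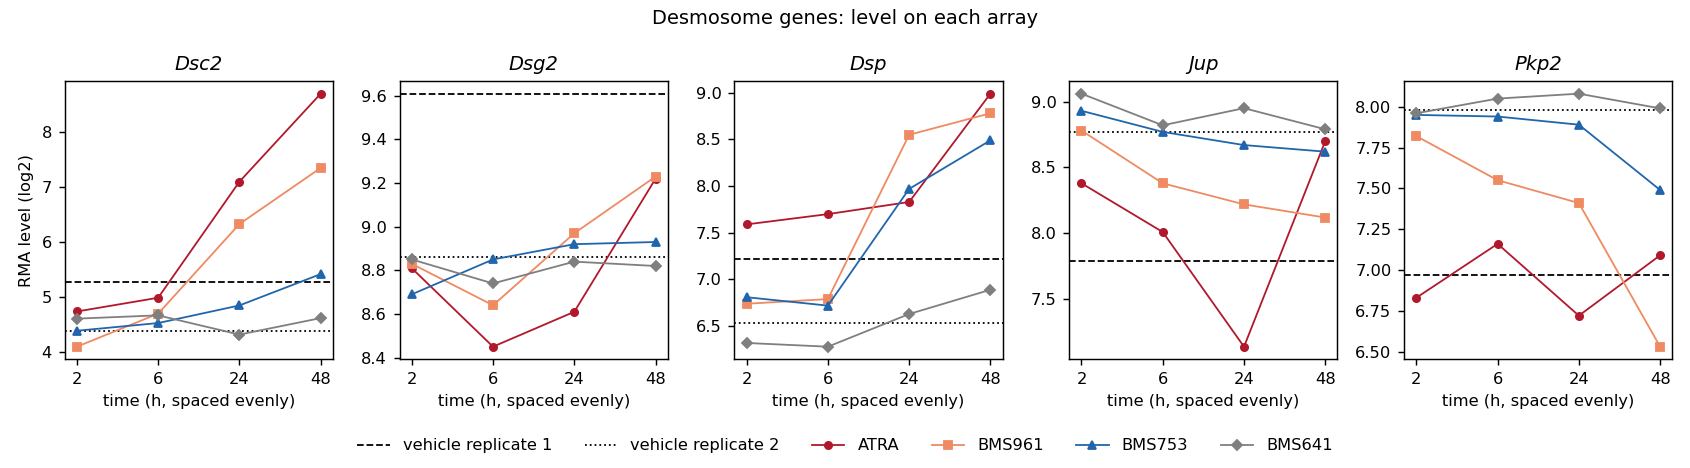
RMA level (log2, vertical axis of its own range in each panel) of the 5 desmosome genes on each array by time (h, evenly spaced), with 1 array per point and the vehicle arrays as dashed (replicate 1) and dotted (replicate 2) lines. Dsc2 reached 8.70 with ATRA and 7.35 with BMS961 at 48 h, whereas Dsp also reached 8.49 with BMS753.

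Dsp, the plaque protein that binds the keratin filaments, was high late with 3 of the 4 retinoids. The 250 bases before its start (chr13:38151044-38151293, plus strand, GRCm38.p6) are shown because Dsp was high late with ATRA, BMS961 and BMS753, with capitals for the GC box on either strand.
Dsp: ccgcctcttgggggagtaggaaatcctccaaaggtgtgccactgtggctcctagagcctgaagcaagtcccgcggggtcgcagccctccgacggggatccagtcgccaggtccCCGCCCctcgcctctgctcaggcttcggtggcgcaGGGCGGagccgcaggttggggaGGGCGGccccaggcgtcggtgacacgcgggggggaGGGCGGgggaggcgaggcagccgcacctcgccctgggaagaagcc
The window held the GC box GGGCGG 4 times and no match to the other 3 motifs. Windows of 5 of the 10 genes (Krt7, Krt8, Krt18, Dsp and Jup) were used here. The nuclear receptor element stood in those of Krt7 (from base 16 after the start), Krt8 and Krt18, the GC box in those of Krt7, Dsp and Jup, and the AP-1 element in none.

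Dsp levels were 7.22 and 6.53 on the vehicle arrays. ATRA arrays held 7.59, 7.70, 7.83 and 8.99, all above both vehicle arrays. BMS961 arrays held 6.74, 6.79, 8.55 and 8.78, BMS753 arrays 6.81, 6.72, 7.97 and 8.49, and BMS641 arrays 6.32, 6.28, 6.63 and 6.89. With BMS961 and BMS753 the step thus lay between 6 h and 24 h, while with ATRA the 2 h array was already above both vehicle arrays. The early ATRA change of Dsp against vehicle was 0.77 ± 0.24 (adjusted p = 0.194), and 0.42 with the block (adjusted p = 0.505). Neither passed. Without vehicle replicate 1 it was 1.11 and passed, in a fit that leaves a single vehicle array. Late Dsp rose against vehicle by 1.53 ± 0.24 with ATRA (2.89-fold, adjusted p = 0.00611) and by 1.79 ± 0.24 with BMS961 (3.46-fold, adjusted p = 0.0046). With BMS753 it was 1.35 ± 0.24 (2.55-fold), with an adjusted p = 0.0552 that missed the threshold, and 1.70 (adjusted p = 0.00639) with the block. It passed at 1.70 without vehicle replicate 1, at 1.01 without vehicle replicate 2 and at 1.35 without the ATRA 24 h or 48 h array. BMS641 gave -0.12 ± 0.24 (95% interval -0.63 to 0.40). The ATRA rise was 1.19 with the block (adjusted p = 0.0441) and 1.12 without the ATRA 48 h array (adjusted p = 0.0663), and the BMS961 rise was 1.58 without the BMS961 24 h array (adjusted p = 0.107). From early to late Dsp rose by 1.90 ± 0.24 with BMS961 (adjusted p = 0.00479). The same step was 1.46 ± 0.24 with BMS753 (adjusted p = 0.115, and 0.0086 with the block), 0.77 ± 0.24 with ATRA (adjusted p = 0.0735, and 0.022 with the block) and 0.46 ± 0.24 with BMS641.

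Jup (plakoglobin), which links the cadherin tails to Dsp, was at 7.79 and 8.77 on the vehicle arrays. With ATRA it was 8.38, 8.01, 7.14 and 8.70, and with BMS961 8.78, 8.38, 8.22 and 8.12. BMS753 arrays lay between 8.62 and 8.93 and BMS641 arrays between 8.79 and 9.06. The ATRA 24 h array was the lowest of all and the 48 h array was back near vehicle replicate 2. Late Jup differed from late BMS641 by -0.95 ± 0.38 with ATRA (adjusted p = 0.119) and by -0.70 ± 0.38 with BMS961 (adjusted p = 0.57). The ATRA difference was 0.04 with the block, and -1.78 without the ATRA 48 h array, where the 24 h array alone stands for late. Against vehicle its late changes lay between -0.36 and 0.58, with none called.

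Pkp2, a plakophilin that recruits Dsp to the plaque, was at 6.97 and 7.98 on the vehicle arrays. ATRA arrays held 6.83, 7.16, 6.72 and 7.09, near vehicle replicate 1. BMS961 arrays held 7.82, 7.55, 7.41 and 6.53, each lower than the one before. BMS753 arrays held 7.95, 7.94, 7.89 and 7.49, and BMS641 arrays lay between 7.96 and 8.08. Late Pkp2 was lower with ATRA than with BMS641, at -1.13 ± 0.31 (2.19-fold lower, adjusted p = 0.0318), but -0.12 with the block (adjusted p = 0.945) and -0.72 without the ATRA 24 h array (adjusted p = 0.225). It did not pass without the BMS641 24 h or 48 h array either (adjusted p = 0.111 and 0.231). The BMS961 difference from BMS641 was of like size at -1.06 ± 0.31 (adjusted p = 0.158) and passed with the block (adjusted p = 0.0336), which leaves the value as it is. Over the 18 arrays Pkp2 followed Krt17 (r = 0.90, and 0.90 over the 13 arrays outside the ATRA set). Dsc2 followed Dsp (r = 0.82 and 0.85) and ran against Krt17 (r = -0.85 and -0.95). These arrays share treatments and array sets, so the correlations are descriptions.

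The 10 genes together show how many were called against vehicle. With late ATRA 2 rose and 0 fell (Dsc2 and Dsp), where 4.71% of all genes were called, and the median change of the 10 was 0.39 against -0.02 over all genes. With late BMS961 the same 2 genes rose and 0 fell, where 1.26% of genes were called, with a median of -0.13 against 0.01. With late BMS753 0 of 10 were called by limma (background 0.186%) and 1 had an unadjusted p under 0.05, and with late BMS641 0 of 10 (background 0%), with 0 at that level. None of the 10 was called early: the background shares were 1.25% for ATRA, 0.0401% for BMS961, 0% for BMS753 and 0% for BMS641, and 2, 1, 0 and 1 genes had an unadjusted p under 0.05. The block gave 2, 3, 2 and 0 late calls for ATRA, BMS961, BMS753 and BMS641, where 0.878%, 3.59%, 1.22% and 0.0100% of all genes were called, and 1 early call for ATRA, where 2.28% were. Without vehicle replicate 1 late ATRA had 4 calls, with Krt17 (-3.60) and Pkp2 (-1.07) besides, but 3594 of all genes were called there against 940 with both vehicle arrays. Without the ATRA 24 h array it had 5, with Krt8 (1.98), Krt18 (2.85) and Krt19 (1.59) besides, where 8.30% of genes were called. In that fit the 48 h array, on which these keratins were highest, stands alone for late ATRA and is assumed to vary like the other groups. Without vehicle replicate 2 late BMS641 had 2, Krt17 higher (2.48) and Dsg2 lower (-0.78), where 5.14% of genes were called. Early BMS641, BMS961 and BMS753 then had 3, 2 and 2, where 7.35%, 7.23% and 6.46% of genes were called. Early ATRA had Krt17 (-2.12) and Dsp (1.11) called without vehicle replicate 1, where a single vehicle array is left. Early arrays were 2 h or 6 h old and the vehicle arrays 48 h, so agent and time cannot be told apart in the early comparisons. All 4 retinoids shared the same vehicle arrays.

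**Figure D3:**
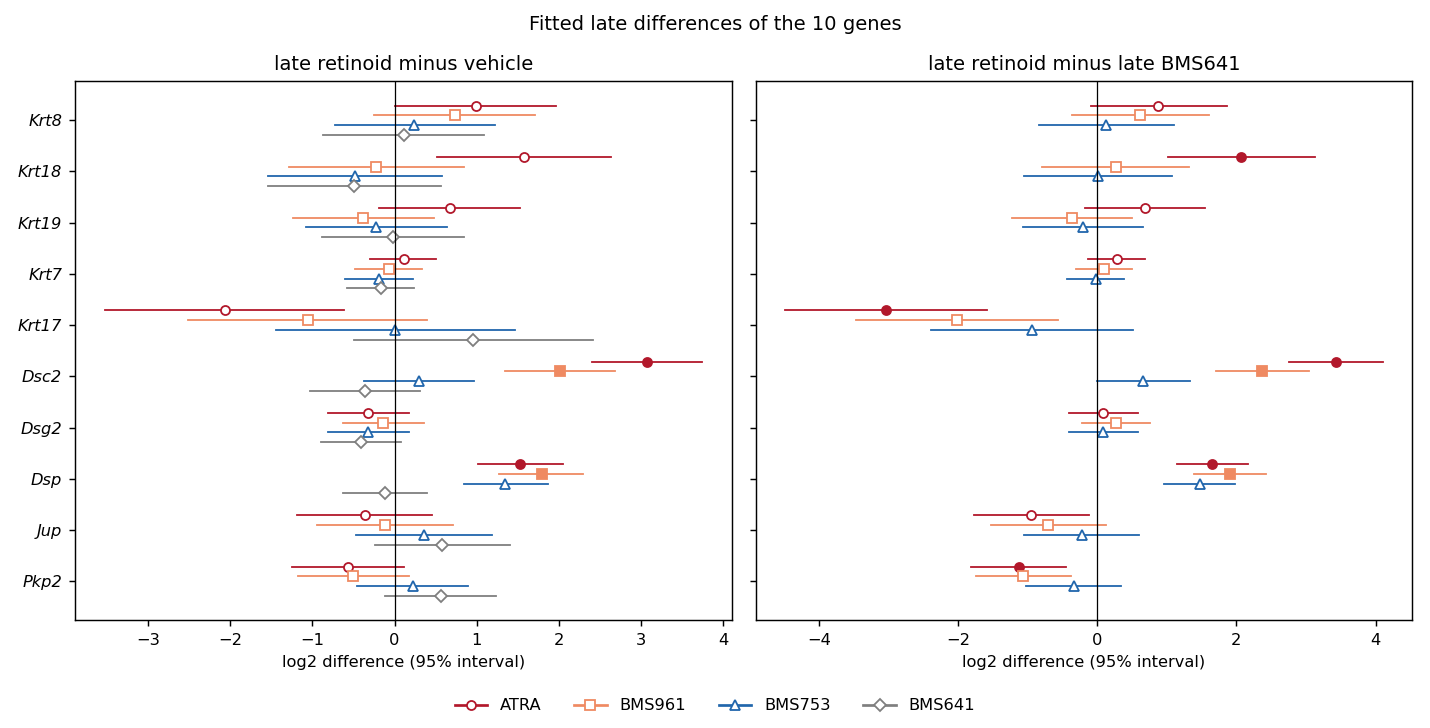
Fitted log2 difference of late retinoid from vehicle (left) and from late BMS641 (right) for the 10 genes, with 95% intervals from limma; filled points were called at an adjusted p under 0.05. Dsc2 and Dsp were called with ATRA and BMS961 on both sides, and Krt18, Krt17 and Pkp2 with ATRA against BMS641 only. With the array set as a block no ATRA call on the right side passed.

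BMS641 served as the second reference because each retinoid could be set against it at the same time. ATRA and BMS753 were at the same dose as BMS641 and BMS961 at a lower one; 6 such comparisons were made. Late ATRA against late BMS641 had 3 of the 10 genes higher (Dsc2 by 3.43 ± 0.31, Krt18, and Dsp by 1.65 ± 0.24) and 2 lower (Krt17 and Pkp2), where 14.8% of all genes were called. With the block 0 of these 5 passed, the lowest adjusted p being that of Dsc2 (2.53, adjusted p = 0.09). Over all genes 13 calls were left of 2948. The block corrects these ATRA differences by the difference of the vehicle pair, with 1 array per set. That also lowers their precision, and how much of the drop in calls is due to it was not tested. Without the BMS641 24 h array 3 passed, and without the BMS641 48 h array 1. Late BMS961 had 2 higher, Dsc2 by 2.37 ± 0.31 (5.18-fold, adjusted p = 0.00474) and Dsp by 1.91 ± 0.24 (3.75-fold, adjusted p = 0.00363), and 0 lower, where 1.19% of genes were called. All 8 BMS961 and BMS641 arrays belong to the same array set. The block gave 4 calls there, with Krt17 (-2.01) and Pkp2 (-1.06) besides, where 641 of all genes were called against 238 without it. Without the BMS961 24 h array or the BMS641 48 h array 0 of 10 passed, and without the BMS961 48 h array 1. Late BMS753, at the matched dose, had 0 of 10 called (background 0%), with 1 gene at an unadjusted p under 0.05. That gene was Dsp at 1.47 ± 0.24 (2.77-fold, 95% interval 0.96 to 1.98, adjusted p = 0.133), which passed with the block (adjusted p = 0.0137). For the keratins the late difference of BMS753 from BMS641 had intervals of -1.05 to 1.07 for Krt18, -0.84 to 1.11 for Krt8 and -2.39 to 0.51 for Krt17.

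At single times the differences from BMS641 began at different points. Dsp with ATRA was 1.27, 1.42, 1.20 and 2.10 above BMS641 at 2, 6, 24 and 48 h, whereas with BMS753 it was 0.50, 0.44, 1.34 and 1.60 above it. Dsc2 with ATRA was 0.13, 0.32, 2.78 and 4.08 above BMS641, and with BMS961 -0.51, 0.03, 2.01 and 2.74 from it. Krt8 and Krt18 with ATRA differed from BMS641 by -0.36 and 0.70 at 24 h, before the 48 h values given above. Early ATRA against early BMS641 had 1 of 10 genes called, Dsp at 1.34 ± 0.24 (2.54-fold, adjusted p = 0.0185), where 1.60% of genes were called. With the block Dsp was at 0.65 (adjusted p = 0.542), and 0 of 10 passed without any of the ATRA 2 h, ATRA 6 h, BMS641 2 h or BMS641 6 h arrays. Early BMS961 and early BMS753 had 0 of 10 called (backgrounds 0.00502% and 0%), with 0 genes at an unadjusted p under 0.05 in either.

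**Figure D4:**
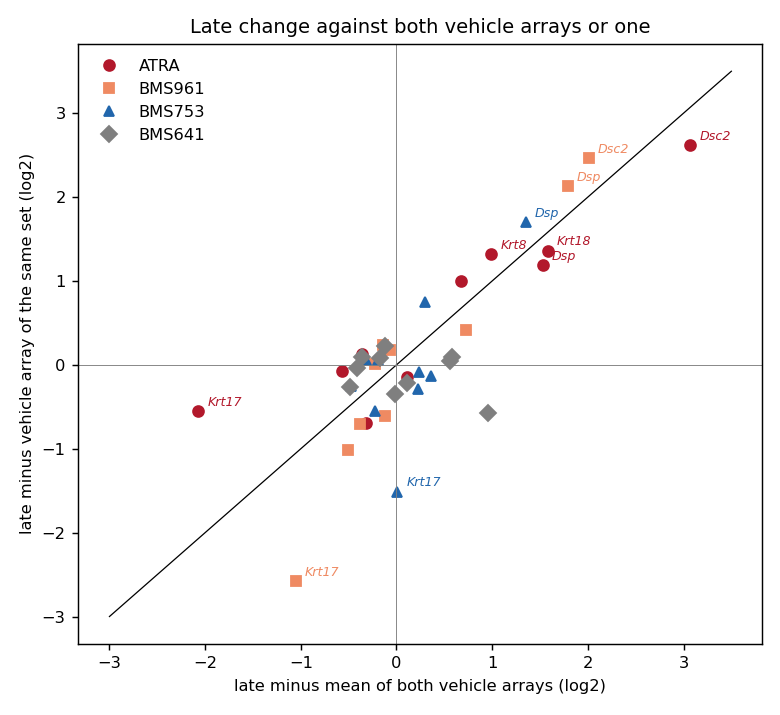
Late log2 change of the 10 genes per retinoid against the mean of both vehicle arrays (horizontal) and, with the array set as a block, against the vehicle array of the same set (vertical); the line marks equal values. Dsc2 and Dsp lay above 1 on both axes with ATRA and BMS961. So did Krt18 with ATRA (1.58 and 1.36, not called) and Dsp with BMS753 (1.35 and 1.70). Krt17 with BMS961 was at -1.05 and -2.58 and with BMS753 at 0.01 and -1.51.

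The change from early to late within a retinoid uses no vehicle array in its difference. With ATRA 2 of 10 genes were higher late and 0 lower (Dsc2, and Krt18 by 1.88 ± 0.48, adjusted p = 0.0384), where 7.27% of all genes were called. Krt18 was at 0.61 without the ATRA 48 h array (adjusted p = 0.197), and leaving out the ATRA 2 h, ATRA 6 h, any BMS961 array, or a 2 h or 6 h array of BMS753 or BMS641 also ended this call, with adjusted p from 0.0577 to 0.276. With BMS961 2 were higher and 0 lower (Dsc2 and Dsp), where 0.767% were called, and 0 passed without any single BMS961 array. With BMS753 0 of 10 were called (background 0.00502%) and with BMS641 0 of 10 (background 0%), with 2 and 0 genes at an unadjusted p under 0.05. With the block, or without vehicle replicate 1 or 2, the calls were 4 for ATRA, 3 for BMS961, 2 for BMS753 and 0 for BMS641, where 12.8%, 3.85%, 0.517% and 0% of all genes were called. Without the ATRA 24 h array ATRA had 5, where 10.2% of genes were called and the 48 h array alone stands for late.

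The remaining keratins and the linkers of filaments were taken from a list of 19 genes, all measured. In late ATRA against vehicle 0 rose and 2 fell, which is 10.5% of the list beside 4.71% of all genes. These were the cytolinker Plec (-1.23 ± 0.20, adjusted p = 0.00761) and the plakin-repeat protein Eppk1 (-0.89 ± 0.18, adjusted p = 0.022). Eppk1 also fell with late BMS961 (-0.91 ± 0.18, adjusted p = 0.0374), and Plec was lower with late ATRA than with late BMS641 (-1.59 ± 0.20). Each was the 1 gene of the list called there, or 5.26%, beside 1.26% and 14.8% of all genes. With the block Plec was the 1 gene of the list called in late ATRA against vehicle, where 175 of all genes were called. Late ATRA against BMS641 had 0 called with it. In late BMS961 against vehicle the block had 3 lower (Krt13, Eppk1 and Pof1b), where 716 of all genes were called. In late BMS753 it had 2 lower (Krt13 and Pof1b), where 243 were. Without the block none was called with late BMS753 or BMS641 against vehicle, where 5 and 2 genes had an unadjusted p under 0.05. The median of the list was -0.16 with late ATRA and -0.13 with late BMS961. Without the block none of the basal and stratified keratins of the list, such as Krt5 and Krt14, was called in any of the 18 comparisons. With the block Krt13 and Plec were also lower in late BMS961 against BMS641, where 641 of all genes were called. From early to late Krt13 was lower with BMS961, beside Eppk1 and Dnajb6, and with BMS753, where 767 and 103 were called. Krt13 was at 4.84 and 6.19 on the vehicle arrays, and at 6.05, 5.74, 4.76 and 4.84 on the BMS961 arrays. Krt5 lay between 4.05 and 4.54 on all arrays and Krt14 between 4.77 and 5.34.

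Of 30 other genes of desmosomes, adherens, tight and gap junctions 26 were measured. In late ATRA against vehicle 1 rose, the nectin gene Nectin2 (0.92 ± 0.16, adjusted p = 0.0104), and 0 fell. That is 3.85% of the list, below the 4.71% of all genes called. In late BMS961 Nectin2 rose (0.77 ± 0.16) and the claudin Cldn4 fell (-0.88 ± 0.17, adjusted p = 0.0315), 7.69% of the list beside 1.26% of all genes. In late BMS753 and BMS641 0 were called, with 5 and 1 at an unadjusted p under 0.05. Late ATRA had 4 higher than BMS641 and 0 lower, which is 15.4% of the list beside 14.8% of all genes. With the block 0 of the 26 passed there, and 0 in late ATRA against vehicle. The 4 genes were the tight junction membrane protein Ocln (1.12 ± 0.24), E-cadherin (Cdh1, 0.62 ± 0.15), Nectin2 (0.76 ± 0.16) and the scaffold Tjp1 (0.50 ± 0.12). The list median was 0.06 with late ATRA against vehicle and 0.08 against BMS641, beside -0.02 and -0.04 over all genes. Without the block the desmosomal genes of stratified epithelia in this list (Dsc3, Dsg3, Pkp1 and Pkp3) had no call in the 18 comparisons. With the block Dsg3 and Epcam were lower and Nectin2 higher in late BMS961 against vehicle, where 716 of all genes were called. Nectin2 was then also higher in late BMS753 against vehicle and in late BMS961 against BMS641, where 243 and 641 were called.

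Markers of other cell types were read on the same arrays, as mean log2 level of each list. For 13 markers of primitive and parietal endoderm it was 7.08 and 6.24 on the vehicle arrays, 9.54 on the ATRA 48 h array and 8.74 on the BMS961 48 h array, the arrays on which Krt8 and Dsc2 were highest. On the remaining 14 arrays it lay between 6.29 and 7.17. Against vehicle 3 of these 13 were higher with late ATRA and 1 with late BMS961, and 0 were lower. The shares of all genes called there were 4.71% and 1.26%. For late ATRA against BMS641 9 were higher and 0 lower, where 14.8% of all genes were called. With the block 0, 2 and 0 of the 13 passed in these comparisons, where 175, 716 and 13 of all genes were called. For 8 embryonal carcinoma markers the mean was 11.72 and 11.29 on the vehicle arrays, 10.72 at 48 h of ATRA and 10.91 at 48 h of BMS961. Of these 8, 5 were lower than vehicle with late ATRA (Sox2, Utf1, Tdgf1, Zfp42 and Fgf4) and 1 with late BMS961 (Utf1). None was higher, and 4.71% and 1.26% of all genes were called there. With the block 3 and 1 were lower and 0 and 1 higher, where 175 and 716 of all genes were called. The 9 trophoblast markers (means between 5.48 and 5.80), 6 epidermis markers (4.48 to 4.78) and 7 fibroblast markers (4.71 to 5.19) held 1, 0 and 1 called genes in late ATRA against BMS641 and 0 against vehicle. The 7 visceral endoderm markers had means of 4.66 to 5.52, highest at 48 h of ATRA, and 1 called gene against BMS641, Cubn. On that array Cubn was at 9.07, with 6.44 and 4.63 on the vehicle arrays. Of the other visceral endoderm markers only Apoa1 (5.18, with 5.11 and 4.46 on the vehicle arrays) lay above both vehicle arrays there. Whether these shifts take part in the changes of the 10 genes was not tested, and detection calls were not used here.

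The genes outside the set whose levels ran most like each of 4 members over the 18 arrays were listed by Pearson's r, with r over the 13 arrays outside the ATRA set behind it. For Krt8 they were Bend5 (0.96, 0.89), Amot (0.96, 0.95) and F2r (0.95, 0.86). For Krt18 they were Nr2f2 (0.98, 0.67), Clic5 (0.97, 0.76) and Pyy (0.97, 0.43), and for Krt19 Ptbp2 (0.93, 0.89), Errfi1 (0.91, 0.83) and the junction gene F11r (0.90, 0.81). For Dsp they were Golm1 (0.98, 0.97), Ddc (0.98, 0.98) and Heg1 (0.97, 0.98). The nearest genes of Krt8, Krt18 and Krt19 were all highest on the ATRA 48 h array, and those of Dsp on the ATRA or BMS961 48 h array. For Krt18 the likeness was lower outside the ATRA set, where its levels spanned little.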

How the data were processed

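Total RNA of F9 cells was labelled with biotin and hybridised to Affymetrix whole-transcript arrays, per the labels' protocols. The authors' log2 levels come from RMA in Expression Console 1.1, according to the submitters' processing notes, as deposited; genome build: not given in the sources used here; nor is it given which arrays were normalized together. Values (2.05 to 14.36) were used as deposited. A platform annotation gave 21789 probe sets with 1 symbol, 1621 with several and 12146 not listed; genes with several probe sets took the one with the highest mean, which left 19938 genes, with no filter.

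Limma 3.58.1 (R 4.3.3) fitted 9 group means, for vehicle and for early and late arrays of every retinoid. A step between 2 h and 6 h, and another between 24 h and 48 h, were shared by all retinoids. There were 7 residual and 4.55 prior degrees of freedom, and 18 comparisons were adjusted by Benjamini-Hochberg within each. The fit was tested on simulated data. The number of arrays limits the precision. Other settings were centring each array, quantile normalization, only genes above the median level, averaged probe sets, eBayes with trend and robust, no common steps, the array set as a block and leaving out each array. Python 3.11.15 with pandas 2.3.3 and matplotlib 3.10.9 drew the tables and figures. Promoter letters came from RefSeq (GRCm38.p6). Named genes were all members, called list genes in the late comparisons (at most 6 per list) and the 3 most alike genes of 4 members. Members, lists and tests were chosen with earlier results of these data known.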

Additional observations from a re-analysis of the deposited data

Results flagged for a closer look

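For 4 results the effect of a retinoid against vehicle differed between its early and its late arrays by limma's test of that difference. These were Krt18 with ATRA (1.88 higher late, log2), Dsc2 with ATRA (3.03), Dsc2 with BMS961 (2.44) and Dsp with BMS961 (1.90). Groups of 4 or more arrays, on which single outlying arrays could be marked, do not exist here.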

How the results depend on the processing

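No paired analysis was possible because vehicle is the only group with more than 1 replicate number. Of the 18 counts of called genes among the 10, quantile normalization moved none by over 1.5 times. Averaged probe sets could not move a value of the 10, each of which has 1 probe set. With genes above the median level only, Dsc2 and Krt7 are left out and 8 of the 10 are tested, and no call that was still tested was lost. The count was then 1 for late ATRA and late BMS961 against vehicle (2 before), 1 for late BMS753 (0), 1 for late BMS961 against BMS641 (2) and 1 for ATRA and BMS961 late against early (2 each). Centring the arrays gave 1 call for late BMS753 against vehicle. Trend and robust eBayes gave 1 there and 1 for ATRA late against early, where Krt18 no longer passed (adjusted p = 0.0546). Without common steps late BMS961 against vehicle had 1, with Dsc2 at an adjusted p = 0.0531. The array set as a block gave 2 for late BMS753 against vehicle, 1 for early ATRA against vehicle, 0 for late and 0 for early ATRA against BMS641 (5 and 1 before), 4 and 1 for late BMS961 and BMS753 against BMS641, and 4 and 2 for ATRA and BMS753 late against early. Late ATRA against BMS641 for Krt17 reversed with the block, to 0.02. The block leaves out the vehicle pair from the spread; the cause of other changes was not tested.

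Leaving out each array gave counts of 1 to 5 for late ATRA, 0 to 3 for late BMS961, 0 to 2 for late BMS753 and 0 to 2 for late BMS641 against vehicle. Early counts were 0 to 2 for ATRA, 0 to 2 for BMS961, 0 to 2 for BMS753 and 0 to 3 for BMS641. Against BMS641 late counts were 1 to 5 for ATRA, 0 to 4 for BMS961 and 0 to 1 for BMS753, and 0 to 3 for early ATRA. From early to late they were 1 to 5 for ATRA, 0 to 3 for BMS961 and 0 to 2 for BMS753. Of the 164 uncalled values, 52 changed sign with the block and at most 35 without any 1 array (vehicle replicate 1).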
